A study of Caenorhabditis elegans with 18 samples.

Results

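The flp and nlp genes of Caenorhabditis elegans encode precursors of short signalling peptides. The FMRFamide-like (flp) precursors give peptides that end in an amidated arginine and phenylalanine, and the neuropeptide-like (nlp) precursors give a mixed set of other peptides. Every gene with a symbol of the form flp or nlp followed by a number was taken, apart from nlp-27, nlp-28, nlp-29, nlp-30, nlp-31 and nlp-34, which were left out by the rule. This gave 96 of the 20395 genes in the table, 31 flp and 65 nlp genes. Of these, 95 passed the filter on low counts and were tested among 17484 genes. The gene that did not pass was nlp-22, which had under 10 reads in every library.

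RNA from whole worms was sequenced in 18 libraries, 3 in each of 6 groups. In 5 groups worms had been exposed for 4 h to a benzimidazole anthelmintic at 1.13 mM in dimethyl sulfoxide (DMSO). The drugs were ABZ (albendazole), FBZ (fenbendazole), OxBZ (oxfendazole), MBZ (mebendazole) and TBZ (thiabendazole). The sixth group was given DMSO alone. Replicates carry the numbers 1 to 3, and those of TBZ 2 to 4. All 6 groups were of 1 strain, CB3474, and carried ben-1(e1880), an allele of the beta-tubulin gene through which benzimidazoles act on wild-type worms. No group with wild-type ben-1 is in the series, so each comparison is between worms with that allele. Each replicate was a pool of about 20000 worms raised in liquid culture at 20 °C for about 70 h. The growth protocol gives the adult stage and the source label gives mixed larval stages. Transcripts of yolk protein genes were present in every library, which adult hermaphrodites transcribe in the intestine, at summed levels of 16014 to 82219 CPM (read counts scaled to the size of the library). In ABZ, MBZ and DMSO replicate 1 had 81006, 78469 and 82219 CPM and replicate 3 had 30971, 23001 and 33357 CPM. The sums ran from 34487 to 37488 CPM in FBZ, 45564 to 50968 CPM in OxBZ and 16014 to 45827 CPM in TBZ. The cause of this spread was not tested.

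Neuropeptide precursors are made in the cell body, packed into dense-core vesicles and cut there by a proprotein convertase and a carboxypeptidase. Most flp and many nlp peptides are then amidated, released outside the synapse, and bind G protein-coupled receptors on other neurons, muscle, gut or gonad. Most flp and nlp genes are transcribed in small sets of neurons, while some nlp genes are transcribed mainly in intestine or epidermis.

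Levels are CPM with TMM scaling between libraries, and levels of different genes are compared per kilobase of exon. Tests are edgeR quasi-likelihood tests with Benjamini-Hochberg adjustment over all 17484 genes, and a gene was called when the adjusted p was under 0.05. Fold changes are log2 values with an approximate standard error, with the group named first on top. The labels call the 3 libraries of a group biological replicates and do not say whether they came from cultures on different days, so p-values describe the spread between these libraries. No culture or batch is named either. A drug effect and a culture difference therefore cannot be told apart in FBZ, OxBZ, MBZ and TBZ against DMSO, or between drugs. Libraries held 57010263 to 67277284 counts, and 1 read was worth 0.0139 to 0.0181 CPM. On the first principal component of all tested genes, which took 48.1% of the variance, ABZ replicate 2 and DMSO replicate 2 stood together at one end and the 3 FBZ libraries at the other. Summed sperm markers were 3656 CPM in ABZ replicate 2 and 4122 CPM in DMSO replicate 2, against 54.7 to 1011 CPM in the other 16 libraries. Counts of members that changed against DMSO are therefore also given without those 2 libraries.

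The 96 genes differed in level by orders of magnitude. Over the 18 libraries 8 genes averaged under 1 CPM, 50 between 1 and 10 CPM, 37 between 10 and 100 CPM and 1, nlp-40, above 100 CPM. Per kilobase, nlp-40 was highest at 171 CPM per kb, followed by nlp-33 at 134, nlp-49 at 113, nlp-24 at 102, nlp-36 at 96.3 and flp-1 at 86.2 CPM per kb. The exons of nlp-24 and nlp-36 each overlap a gene on the opposite strand, so their levels may include reads of that gene. The peptide of nlp-40 is secreted from the intestine and paces defecation, nlp-49 peptides act through the receptor SEB-3 on locomotion and arousal, and flp-1 peptides shape body bending. The nlp-24 and nlp-33 precursors belong to the YGGWamide group. At the other end stood nlp-22, whose peptide acts in larval sleep, with reads in 3 of 18 libraries.

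Any difference among the 6 groups was found for 84 of 95 members (88.4%), against 69.5% of all genes tested. Among the flp genes 30 of 31 differed and among the nlp genes 54 of 64. Against DMSO, calls were most frequent under OxBZ (71 members, 74.7%, against 42.7% of all genes) and FBZ (35 members, 36.8%, against 51.8%). The share of members called was thus above that of all genes under OxBZ and below it under FBZ. Summed over the 96 genes, levels were 1119 to 1423 CPM in ABZ, 1410 to 1505 CPM in FBZ, 683 to 752 CPM in OxBZ, 1193 to 1469 CPM in MBZ, 1226 to 1439 CPM in TBZ and 1127 to 1356 CPM in DMSO libraries. The OxBZ sums lay below those of every other library and the FBZ sums overlapped with those of ABZ, MBZ and TBZ but not with those of DMSO.

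**Figure D1:**
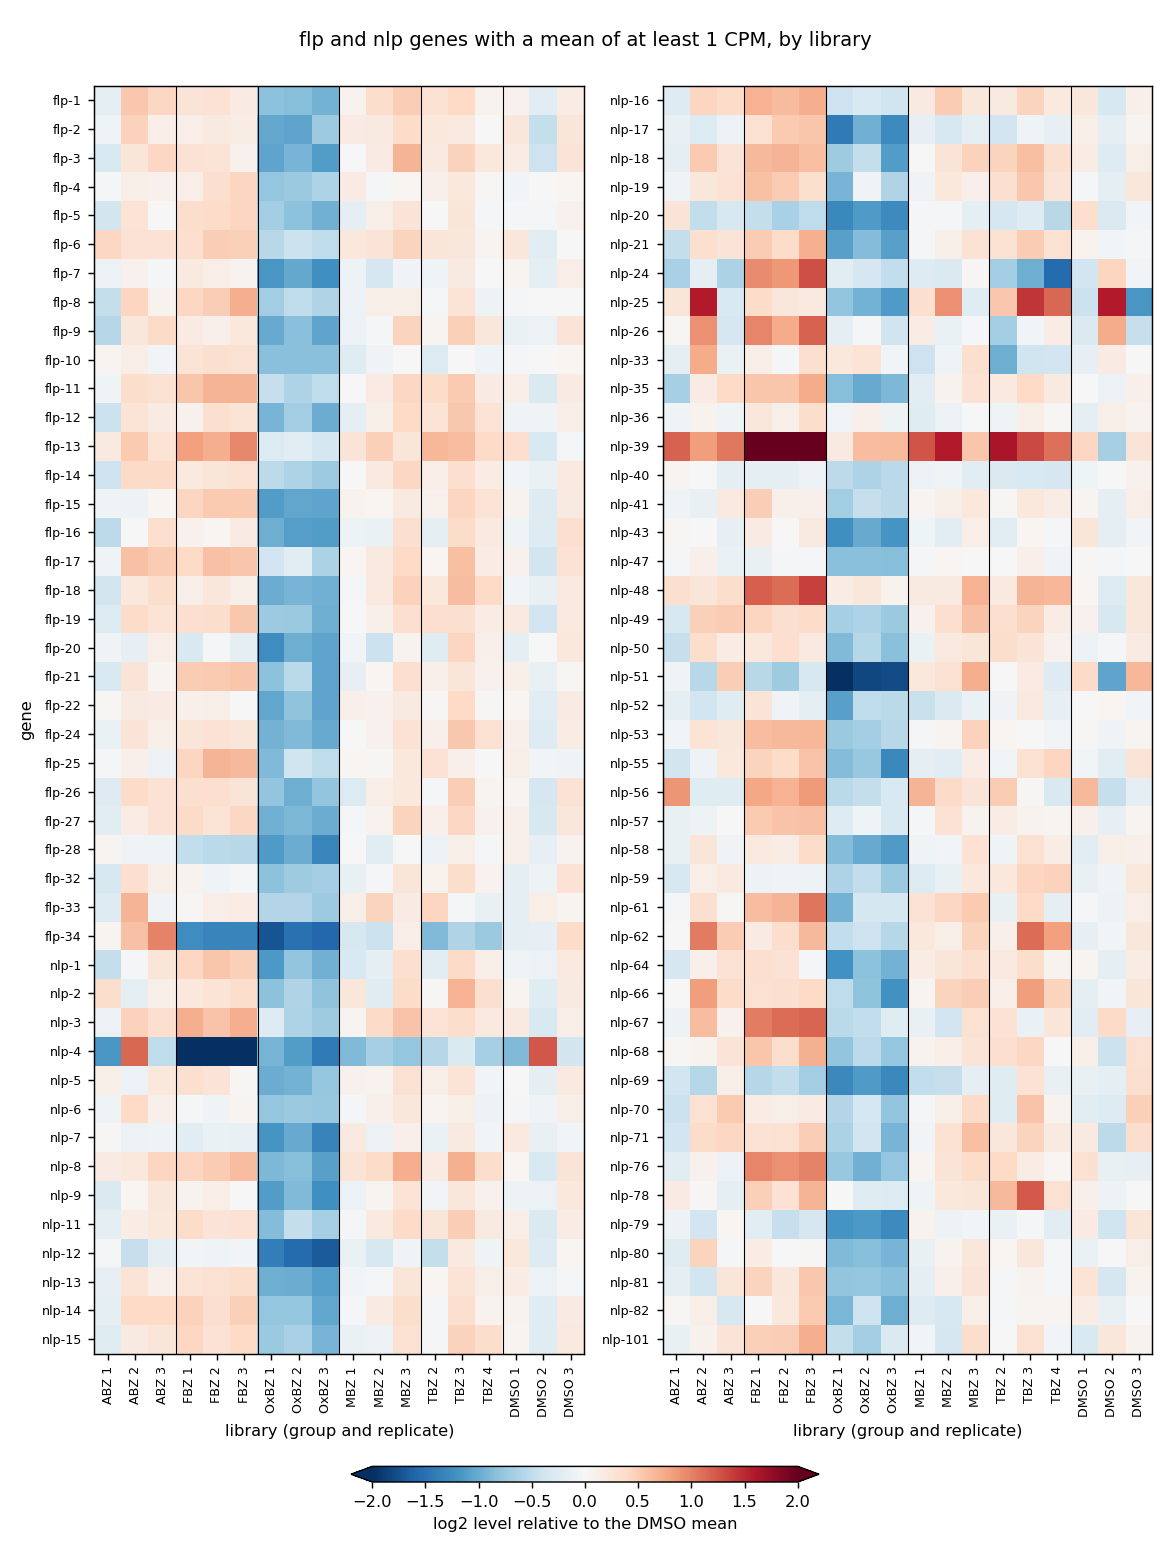
Levels of the 88 flp and nlp genes with a mean of at least 1 CPM (rows) in the 18 libraries (columns), as log2 of the level over the DMSO mean of that gene; blue is lower, red is higher, and values beyond 2 either way take the end colour. The OxBZ columns are blue for most rows, the FBZ columns are pale red for most rows, and nlp-39 and nlp-4 show the strongest colours in FBZ.

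Transcripts of most neuropeptide precursors were lower in OxBZ than in DMSO libraries. Of 95 members tested 71 fell and none rose, against 21.5% of all genes that fell and 21.2% that rose (42.7% called). The flp genes fell in 28 of 31 cases and all 31 had negative log2 fold changes, and the nlp genes fell in 43 of 64 cases. The median log2 fold change was -0.89 over the members (quartiles -1.08 and -0.64) and -0.01 over all genes. In 31 members the fall was at least 2-fold, against 14.2% of all genes. In 72 of 95 members all 3 OxBZ libraries lay below all 3 DMSO libraries, against 23.9% of all genes, and in none did they lie above, against 26.4%. In whole-worm RNA fewer cells of a type and less RNA per cell cannot be told apart.

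Values of single genes show the size of the falls. The locomotion precursor flp-1 stood at 31.3, 30.5 and 28.4 CPM in OxBZ libraries, against 58.8, 47.4 and 61.3 CPM in DMSO libraries. Every OxBZ value lay below every DMSO value, and the log2 fold change was -0.89 ± 0.16 (adjusted p = 0.000823). The gene flp-10, whose peptide acts with that of flp-17 through the receptor EGL-6 to inhibit egg laying, had 11.3, 11.4 and 11.4 CPM in OxBZ libraries, against 20.2, 20.3 and 21.1 CPM in DMSO libraries. Replicates of flp-10 were almost equal within both groups, and it fell by 0.86 ± 0.09 (adjusted p = 5.84e-06). The cholecystokinin-like precursor nlp-12, which the stretch-sensing neuron DVA uses to tune motor output, had 6.16, 5.49 and 4.94 CPM in OxBZ libraries, against 19.6, 14.1 and 17.3 CPM in DMSO libraries. Every OxBZ value of nlp-12 lay below those of the other 15 libraries, with a log2 fold change of -1.62 ± 0.17 (adjusted p = 1.13e-05).

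The largest falls under OxBZ were those of nlp-51, nlp-4, flp-34, nlp-12, nlp-79 and nlp-69. Levels of nlp-51 were 7.68, 10.3 and 10.4 CPM in OxBZ libraries, against 48.8, 17.7 and 59.7 CPM in DMSO libraries. DMSO replicate 2 was low for this gene, yet every OxBZ value lay below it, and the log2 fold change was -2.15 ± 0.36 (adjusted p = 0.000443). The gene flp-34, which serotonergic neurons use in aversive odour learning, had 3.41, 4.11 and 3.85 CPM in OxBZ libraries, against 10.8, 11.1 and 16.1 CPM in DMSO libraries, a fall of 1.74 ± 0.23 (adjusted p = 6.79e-05). The intestinal gene nlp-40 fell less, with 96.7, 91.4 and 96.3 CPM in OxBZ libraries, against 132, 140 and 149 CPM in DMSO libraries. Its log2 fold change was -0.56 ± 0.06 (adjusted p = 1.59e-05) and the groups did not overlap. For nlp-79, whose exons overlap a gene on the opposite strand, the log2 fold change was -1.56 ± 0.21 (adjusted p = 7.34e-05), and for nlp-69 it was -1.46 ± 0.23 (adjusted p = 0.000266).

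The fall of nlp-4 under OxBZ rested on single libraries. Its levels were 1.502, 1.254 and 0.934 CPM in OxBZ libraries, against 1.58, 8.54 and 2.46 CPM in DMSO libraries. The log2 fold change was -1.77 ± 0.67 (adjusted p = 0.0451), and without DMSO replicate 2 it was -0.79 (adjusted p = 0.355). The call was also lost without any 1 of the 3 OxBZ libraries, with adjusted p = 0.0834, 0.103 and 0.122.

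Members that did not pass the test under OxBZ numbered 24. Among the flp genes these were flp-13, flp-17 and flp-23, named after their values were seen, with log2 fold changes of -0.33, -0.46 and -1.64, the last at a mean of 0.084 CPM. The members with positive log2 fold changes were nlp-32, nlp-33, nlp-39, nlp-45 and nlp-48, also named after their values were seen, and none of these was called. In the YGGWamide group none of nlp-24, nlp-25, nlp-26, nlp-32 and nlp-33 passed the test. Levels of nlp-33 were 53.1, 55.3 and 44.2 CPM in OxBZ libraries, against 40.7, 51.5 and 45.9 CPM in DMSO libraries. These overlapped, and the log2 fold change was 0.14 ± 0.25. The gene nlp-24, an opioid-like precursor linked to feeding in starved worms, had a log2 fold change of -0.39 ± 0.23 (adjusted p = 0.187), and passed the test without DMSO replicate 1 at -0.67 (adjusted p = 0.0406). In the same way nlp-25 passed without DMSO replicate 1 (-2.11, adjusted p = 0.036) or DMSO replicate 3 (-2.12, adjusted p = 0.0164), and flp-13 without DMSO replicate 2 (-0.54, adjusted p = 0.02). With all libraries DESeq2 called nlp-25 lower, at -1.69 (adjusted p = 0.0253). Levels of nlp-25 in DMSO libraries ran from 1.49 to 13.02 CPM, DMSO replicate 2 being the highest.

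**Figure D2:**
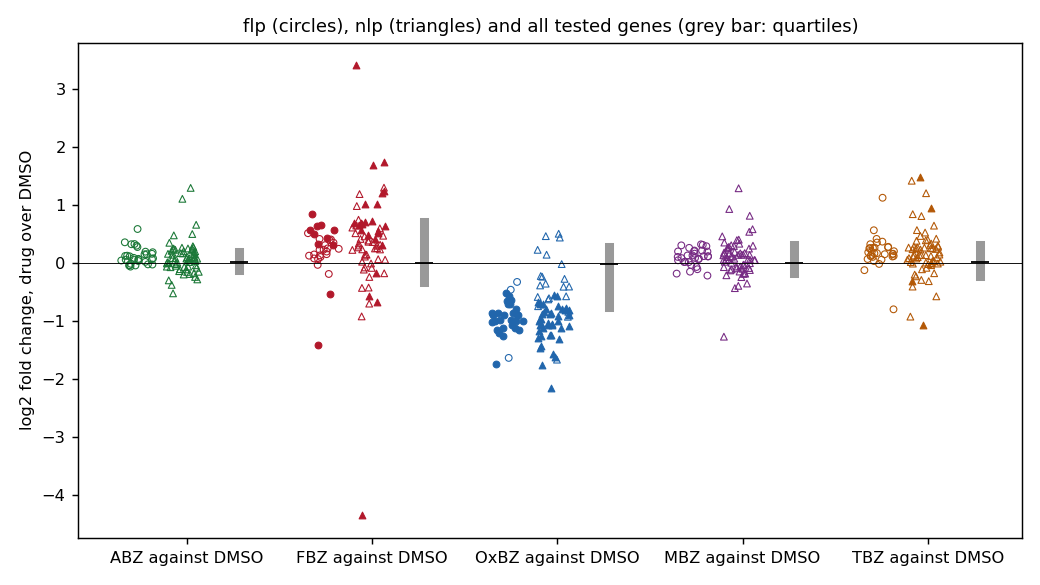
Log2 fold change of each tested flp gene (circles) and nlp gene (triangles) for each drug against DMSO; filled symbols have an adjusted p under 0.05, and the grey bar and black line are the quartiles and median of all 17484 genes. Under OxBZ the members centre on -0.89 while the median of all genes is -0.01, and under ABZ, MBZ and TBZ nearly all symbols are open.

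The share of members that fell was read against all genes of like level, since the test calls fewer genes at low counts. Between 10 and 30 CPM 26 of 27 members fell (96.3%), against 21.1% of all genes. From 3 to 10 CPM 28 of 35 fell (80%), against 32%, and from 30 to 100 CPM 7 of 10 (70%), against 12%. From 1 to 3 CPM 8 of 15 fell (53.3%), against 35.1%. Below 1 CPM 1 of 7 members fell (14.3%), against 19.7% of all genes there. The 1 member above 100 CPM, nlp-40, also fell, against 12.3%. Above 1 CPM the share of members that fell thus exceeded that of all genes in each class of level.

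**Figure D3:**
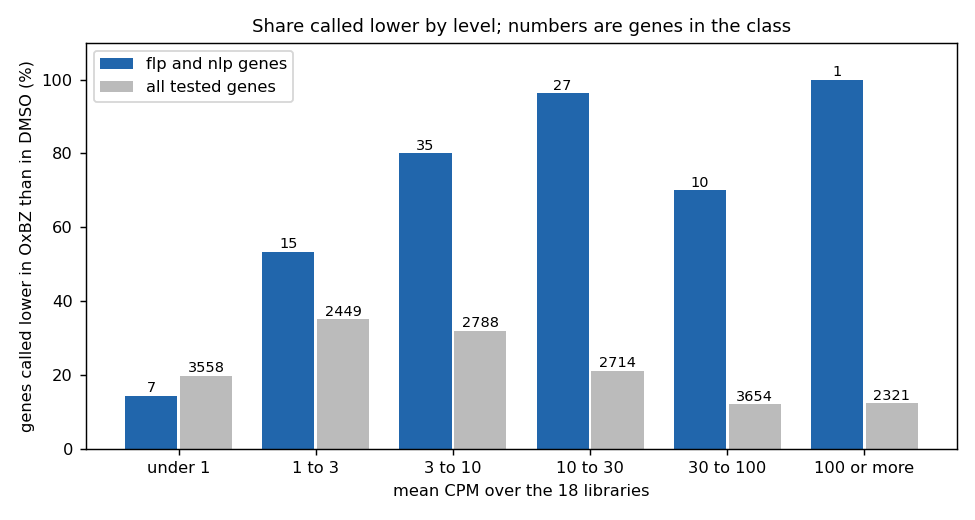
Percent of genes with a lower level in OxBZ than in DMSO at an adjusted p under 0.05, for flp and nlp genes (blue) and all tested genes (grey), by mean CPM over the 18 libraries, with the number of genes over each bar. Members reach 96.3% between 10 and 30 CPM, where all genes stand at 21.1%; the class of 100 CPM or more holds 1 member.

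Lists of other genes of the peptide pathway and markers of neurons were counted beside the precursors. Of 10 processing genes 6 fell and none rose under OxBZ (median log2 fold change -0.58), against the same 21.5% of all genes that fell. The proprotein convertase gene egl-3 averaged 82.0 CPM in OxBZ and 155 CPM in DMSO, a fall of 0.91 ± 0.14 (adjusted p = 0.000174). The carboxypeptidase gene egl-21 fell by 0.96 ± 0.13 and the convertase chaperone gene sbt-1 by 0.78 ± 0.13. Both amidation genes pghm-1 and pgal-1 fell, by 0.85 ± 0.13 and 0.70 ± 0.14, and so did the convertase gene aex-5, by 0.46 ± 0.15. The bifunctional amidation gene pamn-1 (0.21), the furin-like genes kpc-1 (0.30) and bli-4 (-0.05) and cpd-1 (0.20) did not pass the test.

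Of 10 dense-core vesicle genes 3 fell and 2 rose under OxBZ, against 21.5% of all genes that fell and 21.2% that rose. The vesicle membrane protein gene ida-1 averaged 48.0 CPM in OxBZ and 94.1 CPM in DMSO, a fall of 0.97 ± 0.10 (adjusted p = 7.0e-06). The release factor gene unc-31 was at -0.28 ± 0.16 (adjusted p = 0.182), and unc-108, a small GTPase gene of vesicle maturation, rose by 0.59 ± 0.09. Of 101 tested peptide receptor genes 36 fell and 2 rose (median log2 fold change -0.56). From 1 to 3 CPM 35.1% of all genes fell, and the receptor genes were not sorted by level.

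Neuronal markers moved in both directions under OxBZ. Of 16 pan-neuronal genes 7 fell and 2 rose, with a median log2 fold change of -0.13. Of all genes 21.5% fell and 21.2% rose. The synaptotagmin gene snt-1 fell by 0.80 ± 0.12 and the RNA-binding protein gene rgef-1 by 1.15 ± 0.17, while the synaptobrevin gene snb-1 rose by 0.65 ± 0.08 and the syntaxin-binding gene unc-18 by 0.69 ± 0.06. Summed over the 16 genes, levels were 856 to 876 CPM in OxBZ libraries, against 721 to 827 CPM in DMSO libraries. Of 12 tested genes that mark transmitter types 8 fell, among them eat-4 (glutamate, -1.06 ± 0.22) and unc-25 (GABA, -0.80 ± 0.17), and tdc-1 (0.06) and tbh-1 (0.03), which gonadal sheath cells also transcribe, did not pass the test. The acetylcholine vesicle transporter gene unc-17 had no read in any library. Whether its reads were lost in counting was not tested, so this is not read as absence of the transcript.

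Markers of other tissues also differed under OxBZ. Summed intestinal markers were at 2656 to 2950 CPM in OxBZ libraries, against 6553 to 7634 CPM in DMSO libraries, and summed germline markers at 10054 to 11982 CPM, against 8010 to 9850 CPM. Of 10 intestinal markers 8 fell and 1 rose, of 11 germline markers 5 rose and none fell, of 9 muscle markers 3 fell and none rose, and of 3 glial markers 2 fell and none rose. Of all genes 21.5% fell and 21.2% rose. The part of these tissues in the fall of the precursors was not tested.

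Under FBZ precursors moved in both directions. Of 95 members tested 29 rose, against 24.3% of all genes, so the share that rose was near the background, and 6 fell, against 27.4% of all genes. The share of members called, 36.8%, was below the 51.8% of all genes. The median log2 fold change was 0.32 over the members (quartiles 0.11 and 0.59) and -0.01 over all genes. In 51 members all 3 FBZ libraries lay above all 3 DMSO libraries, against 33.1% of all genes, and in 8 below, against 32.6%. Among the flp genes 9 rose and 2 fell of 31, and among the nlp genes 20 rose and 4 fell of 64. Rises of at least 2-fold were called in 7 members, against 15.3% of all genes, and falls of at least 2-fold in 2, against 11.1%. By level, 1 of 7 members rose below 1 CPM (14.3%), against 24.8% of all genes, 6 of 15 from 1 to 3 CPM (40%), against 35.2%, and 10 of 35 from 3 to 10 CPM (28.6%), against 34.7%. From 10 to 30 CPM 11 of 27 rose (40.7%), against 30%, and from 30 to 100 CPM 1 of 10 (10%), against 14.3%. Without FBZ replicate 3 the calls numbered 21, 16 higher and 5 lower, and without ABZ replicate 2 and DMSO replicate 2 they numbered 33. Calls over all genes numbered 7379 and 8453 in these refits, against 9049 with all libraries.

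The largest rise was that of nlp-39. Its levels were 25.4, 21.5 and 22.8 CPM in FBZ libraries, against 2.87, 1.11 and 2.53 CPM in DMSO libraries. The FBZ values lay above those of all other 15 libraries, and the log2 fold change was 3.42 ± 0.35 (adjusted p = 1.15e-05). The low-level gene nlp-48 had 2.08, 1.95 and 2.42 CPM in FBZ libraries, against 0.664, 0.430 and 0.827 CPM in DMSO libraries, with a rise of 1.74 ± 0.29 (adjusted p = 0.000439). Levels of nlp-24 were 74.2, 70.5 and 95.1 CPM in FBZ libraries, against 29.3, 52.2 and 37.1 CPM in DMSO libraries. The groups did not overlap, and the log2 fold change was 1.02 ± 0.23 (adjusted p = 0.00273), with exons that overlap a gene on the opposite strand.

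Further rises under FBZ were those of nlp-67 (1.25 ± 0.29), nlp-76 (1.21 ± 0.23) and nlp-61 (1.02 ± 0.29), all at means under 5 CPM. The rise of nlp-61 was lost without FBZ replicate 3, at 0.84 (adjusted p = 0.0508). The exons of nlp-76 overlap the gene nhr-17 on the same strand, so reads of the pair may not be told apart. Among the flp genes the sleep precursor flp-13 rose most, with 13.1, 12.3 and 14.5 CPM in FBZ libraries, against 9.23, 5.76 and 7.07 CPM in DMSO libraries. Its log2 fold change was 0.85 ± 0.16 (adjusted p = 0.000884). The gene nlp-101 was called at 0.73 (adjusted p = 0.0465), and this was lost without any 1 of the 3 FBZ libraries (0.78, 0.78 and 0.62), without DMSO replicate 1 (0.52) and without DMSO replicate 3 (0.77). Without DMSO replicate 2 the calls included nlp-26 (1.57, adjusted p = 0.0083), nlp-51 (-1.05, adjusted p = 0.00554) and nlp-79 (-0.61, adjusted p = 0.0123), which were not called with it.

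The 6 members that fell under FBZ were nlp-4, flp-34, nlp-69, nlp-20, flp-28 and nlp-40. Values under OxBZ are set beside some of these, and both comparisons share the 3 DMSO libraries. Levels of flp-28 were 33.2, 31.8 and 31.5 CPM in FBZ libraries, 20.99, 23.3 and 18.6 CPM in OxBZ libraries and 50.1, 41.4 and 49.0 CPM in DMSO libraries. The 3 groups did not overlap, and the log2 fold changes were -0.54 ± 0.10 under FBZ and -1.16 ± 0.10 under OxBZ (adjusted p = 0.000708 and 1.31e-06). The gene flp-34 had 4.97, 4.66 and 4.66 CPM in FBZ libraries, a fall of 1.41 ± 0.23 against DMSO (adjusted p = 0.000377). For nlp-40 the FBZ values were 122, 122 and 129 CPM, a fall of 0.17 ± 0.06 (adjusted p = 0.0308).

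The FBZ calls of nlp-40, nlp-69 and nlp-20 each depended on single libraries. That of nlp-40 was lost without FBZ replicate 1 or 2 (adjusted p = 0.0893 and 0.0853) and without DMSO replicate 2 or 3 (adjusted p = 0.125 and 0.124). That of nlp-69, at -0.68 ± 0.23, was lost without FBZ replicate 1 or 3 (adjusted p = 0.0547 and 0.0744) or DMSO replicate 3 (adjusted p = 0.108). That of nlp-20, at -0.58 ± 0.18, was lost without FBZ replicate 2 or DMSO replicate 1 (adjusted p = 0.0554 and 0.0503).

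The gene nlp-4 had the largest fall of any member, at 0.0944, 0.250 and 0.262 CPM in FBZ libraries, against 1.58, 8.54 and 2.46 CPM in DMSO libraries. The log2 fold change was -4.36 ± 0.76 (adjusted p = 0.000596), and its 2 highest values were in DMSO replicate 2 and ABZ replicate 2, the libraries highest in sperm markers. Of 44 tested sperm markers 43 fell under FBZ and 11 under OxBZ, and none rose. Of all genes 27.4% fell under FBZ and 21.5% under OxBZ. Summed sperm markers were 54.7 to 81.1 CPM in FBZ libraries and 252 to 713 CPM in OxBZ libraries, against 568 to 4122 CPM in DMSO libraries. The part of sperm RNA in the levels of nlp-4 was not tested.

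**Figure D4:**
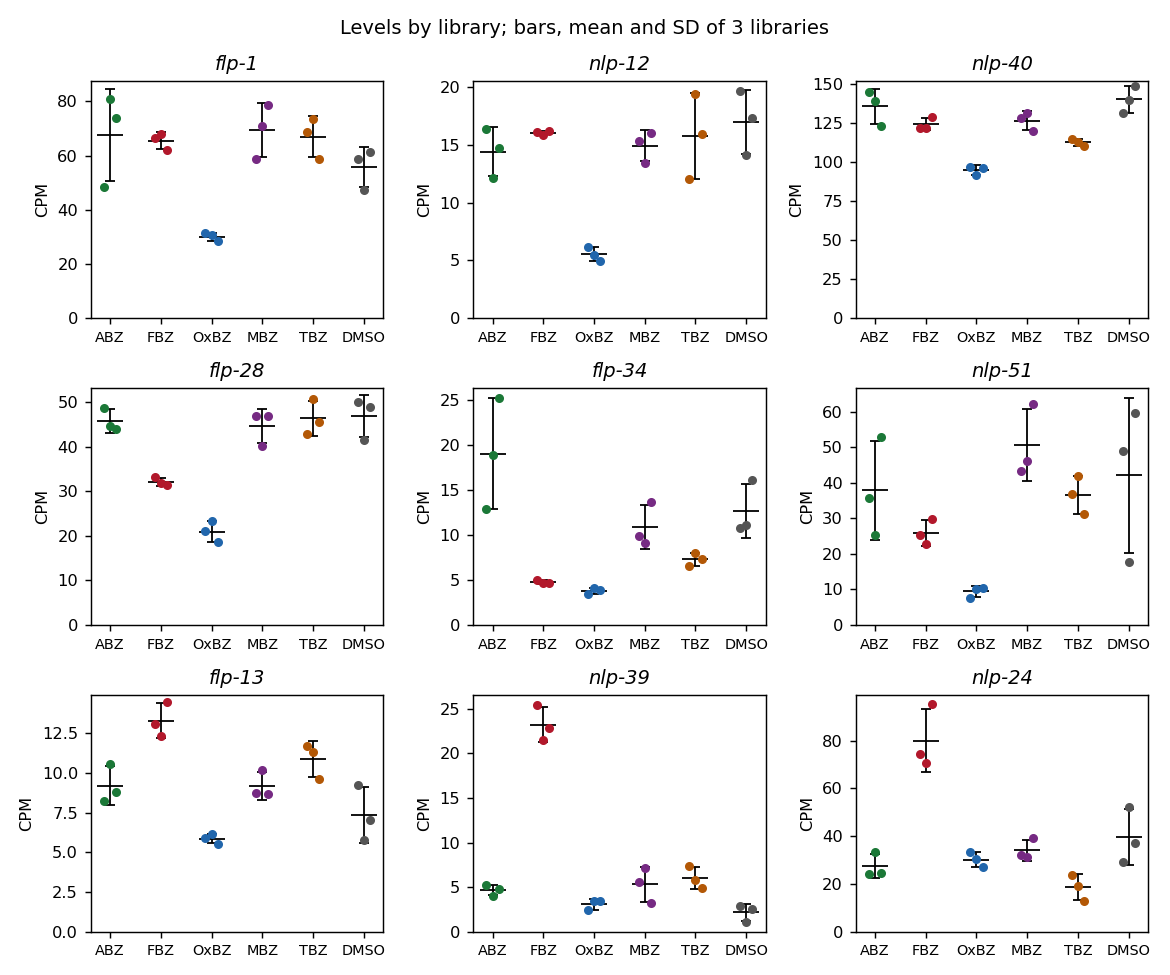
CPM of 9 members in each library (points) by group, with the mean and SD of 3 libraries as bars. Under OxBZ flp-1, nlp-12, nlp-40, flp-28, flp-34 and nlp-51 lie below every DMSO library, and under FBZ flp-13, nlp-39 and nlp-24 lie above every DMSO library.

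Some members were called higher under FBZ and lower under OxBZ, and both comparisons again share the DMSO libraries. Levels of flp-15 were 15.97, 17.1 and 17.2 CPM in FBZ libraries, 5.17, 5.49 and 5.40 CPM in OxBZ libraries and 12.4, 9.75 and 13.5 CPM in DMSO libraries. The groups were fully apart, with log2 fold changes of 0.50 ± 0.12 under FBZ and -1.15 ± 0.12 under OxBZ (adjusted p = 0.00395 and 1.08e-05). The egg-laying precursor nlp-3 had 17.8, 15.97 and 17.9 CPM in FBZ libraries, 8.76, 6.71 and 6.26 CPM in OxBZ libraries and 11.99, 8.43 and 11.6 CPM in DMSO libraries. Every FBZ value of nlp-3 lay above the DMSO values, while OxBZ replicate 1 lay above DMSO replicate 2. Its rise of 0.69 ± 0.19 under FBZ (adjusted p = 0.00752) was called, and so was its fall of 0.56 ± 0.19 under OxBZ (adjusted p = 0.028), which was lost without OxBZ replicate 2 or 3 (adjusted p = 0.0897 and 0.0977) or DMSO replicate 3 (adjusted p = 0.0738). The social feeding precursor flp-21, a ligand of NPR-1, rose under FBZ by 0.57 ± 0.19 (adjusted p = 0.0254) and was not called without any 1 of the 3 FBZ libraries, DMSO replicate 2 or DMSO replicate 3, with adjusted p of 0.051 to 0.0791. It fell under OxBZ by 0.91 ± 0.20 (adjusted p = 0.00264). The FBZ calls of flp-4, flp-8, nlp-13, nlp-17, nlp-18, nlp-21, nlp-35 and nlp-68 and the OxBZ calls of flp-8 and nlp-61 were each lost without at least 1 of the libraries.

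Of the 6 sleep precursors, flp-11, flp-13, nlp-8 and nlp-14 rose under FBZ and flp-24 was at 0.25 ± 0.14 (adjusted p = 0.133), while nlp-22 was not tested. Under OxBZ flp-11, flp-24, nlp-8 and nlp-14 fell and flp-13 did not pass the test. Of all genes 24.3% rose under FBZ and 21.5% fell under OxBZ. Of the 95 members tested 29 rose under FBZ and 71 (74.7%) fell under OxBZ. Whether the sleep precursors differ from the other members was not tested. The peptide of flp-11 is released by the sleep neuron RIS, and those of flp-13, flp-24 and nlp-8 by ALA, which acts in sleep after stress. Levels of flp-11 were 18.4, 19.9 and 20.1 CPM in FBZ libraries, 8.82, 7.82 and 8.49 CPM in OxBZ libraries and 13.5, 9.95 and 13.8 CPM in DMSO libraries, again without overlap. Its log2 fold changes were 0.65 ± 0.16 under FBZ and -0.57 ± 0.16 under OxBZ (adjusted p = 0.00403 and 0.0119), and its exons overlap a gene on the opposite strand. The FBZ call of nlp-14, at 0.42 ± 0.17, was lost without any 1 of the 3 FBZ libraries, DMSO replicate 1 or DMSO replicate 2, with adjusted p of 0.0582 to 0.167. That of nlp-8, at 0.51 ± 0.17, was lost without FBZ replicate 3 or DMSO replicate 2, with adjusted p of 0.0666 and 0.0759.

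Receptor and vesicle genes rose in most cases under FBZ. Of 101 tested peptide receptor genes 63 rose and 3 fell, with a median log2 fold change of 0.83, against 24.3% of all genes that rose. The receptor genes npr-1 (1.65), npr-5 (1.30), dmsr-1 (1.26), dmsr-7 (1.16) and the cholecystokinin receptor homologues ckr-1 (1.21) and ckr-2 (1.63) all rose, while the receptor gene egl-6 did not pass the test (0.14). Of 10 dense-core vesicle genes 7 rose and none fell, among them unc-31 (1.30 ± 0.16) and ida-1 (0.56 ± 0.10). Of 10 processing genes 5 rose and none fell, with egl-3 at 0.17 ± 0.14 and egl-21 at 0.18 ± 0.13, neither of which passed the test.

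Of 16 pan-neuronal genes 14 rose and 1 fell under FBZ (median log2 fold change 0.69), against 24.3% of all genes that rose and 27.4% that fell. The pan-neuronal rises were led by rab-3 and snt-1 at 1.86 ± 0.12 and 1.63 ± 0.12. The summed level of the 16 pan-neuronal genes was 1057 to 1078 CPM in FBZ libraries, against 721 to 827 CPM in DMSO libraries. Of 12 transmitter genes 9 rose and 2 fell, tdc-1 and tbh-1 being those that fell. The summed level of the transmitter genes was lower, at 442 to 460 CPM in FBZ libraries, against 517 to 550 CPM in DMSO libraries. Of 23 neprilysin genes, which encode peptide-degrading proteases, 11 fell and 5 rose under FBZ, and 16 fell and none rose under OxBZ. Under OxBZ 21.5% of all genes fell and 21.2% rose. The ones that fell most under FBZ were nep-13 (-5.39), nep-6 (-5.21) and nep-23 (-5.01), in the libraries where summed sperm markers were also low, and the part of sperm RNA in these values was not tested.

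Other tissue markers differed under FBZ too. Of 10 intestinal markers 6 fell and none rose, of 11 germline markers 9 fell, of 7 epidermal markers 4 fell, and of 9 muscle markers 3 rose. Of all genes 27.4% fell and 24.3% rose. Summed germline markers were 6687 to 6918 CPM in FBZ libraries, against 8010 to 9850 CPM in DMSO libraries. The part of these tissues in the precursors' values was not tested.

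**Figure D5:**
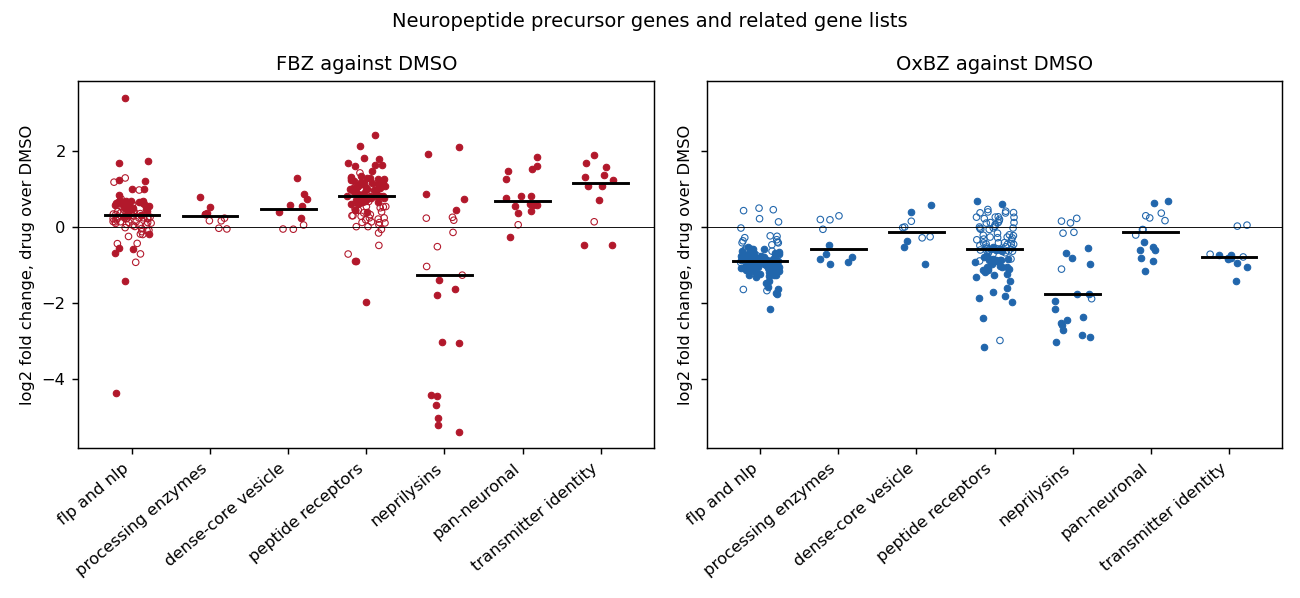
Log2 fold change of each gene for FBZ against DMSO (left) and OxBZ against DMSO (right), by gene list; filled points have an adjusted p under 0.05 and black lines are list medians. Under FBZ the medians are 0.32 for flp and nlp genes and 0.83 for receptors, and under OxBZ they are -0.89 and -0.56.

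Few or no precursors passed the test under ABZ, MBZ and TBZ. Under ABZ none of 95 members was called by edgeR, against 2.2% of all genes (1.6% higher and 0.606% lower), 5 had an unadjusted p under 0.05, and DESeq2 called 2, nlp-39 at 1.11 (adjusted p = 0.0162) and flp-6 at 0.32 (adjusted p = 0.0337). The replicate numbers of ABZ and DMSO pair the libraries, and with the replicate as a block 1 member was called, nlp-24 at -0.51 (adjusted p = 0.0363). Without DMSO replicate 1 edgeR called flp-6, at 0.41 (adjusted p = 0.0469). The median log2 fold change of the members was 0.08. Over the 88 members of at least 1 CPM the 95% interval of the log2 fold change under ABZ reached a median of 0.42 to either side, from 0.14 to 1.42.

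Under MBZ none of 95 members was called by edgeR, against 1.48% of all genes (1.25% higher and 0.235% lower), 4 had an unadjusted p under 0.05, and DESeq2 called 1, nlp-39 at 1.26 (adjusted p = 0.00352). With edgeR nlp-39 was also called without MBZ replicate 3, at 1.55 (adjusted p = 0.0326), and without DMSO replicate 1, at 1.47 (adjusted p = 0.0312), where 3 members were called in all. The members' median log2 fold change was 0.11. The flp-1 values show the width of what could be seen, since its 95% interval ran from -0.04 to 0.67 under MBZ and from -0.08 to 0.63 under ABZ.

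Under TBZ 2 of 95 members rose, against 3.06% of all genes, and 2 fell, against 3.17%, so the share was near the background (6.23% of all genes called). An unadjusted p under 0.05 was found in 19 members, 74 of 95 log2 fold changes were positive, and their median was 0.15, against 0.01 over all genes. All 3 TBZ libraries lay above all 3 DMSO libraries in 11 members, against 11.5% of all genes, and below in 4, against 10.7%. The gene nlp-39 had 7.36, 5.85 and 4.96 CPM in TBZ libraries, against 2.87, 1.11 and 2.53 CPM in DMSO libraries, a rise of 1.48 ± 0.33 (adjusted p = 0.0151). Levels of nlp-24 were 23.9, 19.3 and 12.95 CPM in TBZ libraries, against 29.3, 52.2 and 37.1 CPM in DMSO libraries. All TBZ values were lower, and the log2 fold change was -1.08 ± 0.23 (adjusted p = 0.0138). In the direct comparison of FBZ with TBZ nlp-24 was higher in FBZ by 2.09 ± 0.24 (adjusted p = 4.61e-05). The other calls were nlp-78, at 0.95 ± 0.26 (adjusted p = 0.0443), and nlp-40, at -0.31 ± 0.06 (adjusted p = 0.00867).

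The TBZ calls of nlp-24, nlp-78 and nlp-40 depended on single libraries. Leaving out TBZ replicate 3, TBZ replicate 4 or DMSO replicate 2 each left 2 calls. Over all genes these refits left 423, 386 and 606 calls, against 1089 with all libraries. That of nlp-39 held without each library in turn and was lost when the TBZ and DMSO libraries were fitted alone (1.47, adjusted p = 0.224). That of nlp-24 was lost without TBZ replicate 3 (-1.10, adjusted p = 0.0578), TBZ replicate 4 (-0.87, adjusted p = 0.073) or DMSO replicate 2 (-0.83, adjusted p = 0.0662). That of nlp-78 was lost without TBZ replicate 3 (0.60, adjusted p = 0.258) or any 1 of the 3 DMSO libraries, and that of nlp-40 without TBZ replicate 4 (adjusted p = 0.0511). Other members passed with a library left out: nlp-48 without TBZ replicate 2 (1.004, adjusted p = 0.0355), and flp-13 (0.73, adjusted p = 0.017) and flp-34 (-0.94, adjusted p = 0.0394) without DMSO replicate 1. DESeq2 with all libraries also called nlp-48, flp-13 and flp-34 (adjusted p = 0.048, 0.00915 and 0.00734). Without ABZ replicate 2 and DMSO replicate 2 edgeR called nlp-25 (2.07, adjusted p = 0.0103) and no longer nlp-78 (adjusted p = 0.109).

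Fenbendazole and oxfendazole differ by 1 oxygen, oxfendazole being the sulfoxide of fenbendazole, and were given at the same dose and time. The 2 groups were compared directly, with no DMSO library in the contrast. Their libraries were not shown to be paired, so a drug effect and a culture difference cannot be told apart here either. Of 95 members 86 were higher and 1, nlp-4, was lower in FBZ than in OxBZ, against 29.5% of all genes that were higher and 30.5% that were lower (60% called). The median log2 fold change was 1.20 (quartiles 1.00 and 1.44), and 69 members were at least 2-fold higher, against 21.1% of all genes. In 90 of 95 members all 3 FBZ libraries lay above all 3 OxBZ libraries, against 38.8% of all genes.

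The largest differences between these drugs were those of nlp-39 and nlp-76. Levels of nlp-39 in OxBZ libraries were 2.39, 3.41 and 3.46 CPM, and the log2 fold change of FBZ over OxBZ was 2.91 ± 0.34 (adjusted p = 7.3e-06). Levels of nlp-76 were 2.83, 2.69 and 2.86 CPM in FBZ libraries, against 0.495, 0.366 and 0.483 CPM in OxBZ libraries, a difference of 2.63 ± 0.25 (adjusted p = 1.58e-06). The difference was 1.54 ± 0.17 for nlp-12 (adjusted p = 5.7e-06) and 1.65 ± 0.12 for flp-15 (adjusted p = 3.3e-07). For nlp-4 it was -2.59 ± 0.73 (adjusted p = 0.00701). Of the 8 members that did not pass the test, flp-34 (0.33 ± 0.23) and nlp-33 (0.00 ± 0.25) averaged above 9 CPM.

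All 10 pairs of drugs were compared at the matched dose and time, with p-values adjusted over all genes within each pair. As between FBZ and OxBZ, a culture difference cannot be told apart from a drug effect in these pairs. OxBZ stood apart from each other drug. Against MBZ 75 of 95 members were lower in OxBZ and none higher, where 20.1% of all genes were lower and 22.3% higher (42.4% called). Against TBZ 80 were lower in OxBZ and 2 higher, where 19.1% of all genes were lower and 22.9% higher (42% called). In ABZ 78 members were higher than in OxBZ and none lower, where 22% of all genes were higher and 21.4% lower (43.5% called). The median log2 fold change was -1.01 for OxBZ over MBZ, where the median of all genes was -0.14, -1.06 for OxBZ over TBZ and 0.96 for ABZ over OxBZ. Apart from nlp-4 against FBZ, the members higher in OxBZ than in another drug were nlp-24 (0.69 ± 0.23, adjusted p = 0.0272) and nlp-33 (0.72 ± 0.25, adjusted p = 0.0309), both against TBZ.

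FBZ differed less from the other 3 drugs. In FBZ 14 members were higher than in MBZ and 3 lower, where 12% of all genes were higher and 15% lower (26.9% called). Against TBZ 14 members were higher in FBZ and 5 lower, where 16.1% of all genes were higher and 19.6% lower (35.7% called). In ABZ 3 members were higher than in FBZ and 23 lower, where 24% of all genes were higher and 18.7% lower (42.7% called). The genes lower in FBZ than in each of ABZ, MBZ and TBZ were flp-28, flp-34 and nlp-4. Levels of flp-34 were 12.9, 18.9 and 25.2 CPM in ABZ libraries and 4.97, 4.66 and 4.66 CPM in FBZ libraries, a log2 fold change of 1.996 ± 0.23 for ABZ over FBZ (adjusted p = 6.74e-05). The ABZ against FBZ calls numbered 13 without ABZ replicate 1 or FBZ replicate 3 and 17 without FBZ replicate 1. Over all genes these refits called 6269, 5479 and 5721, against 7459 with all libraries. The FBZ against MBZ calls numbered 10 without FBZ replicate 3 and 11 without MBZ replicate 1, and the FBZ against TBZ calls 9 without FBZ replicate 3, 12 without FBZ replicate 1 or TBZ replicate 3 and 11 without TBZ replicate 4. Over all genes the FBZ against MBZ refits called 2523 and 2327, against 4710 with all libraries. The FBZ against TBZ refits called 4307 to 4486, against 6249 with all libraries.

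Among ABZ, MBZ and TBZ few differences passed the test. ABZ and MBZ differed in no member by edgeR (0.206% of all genes called, 0.0744% higher and 0.132% lower in ABZ), with 1 at an unadjusted p under 0.05 and 1 call by DESeq2, and MBZ and TBZ in none (3.45% of all genes called, 2.19% higher and 1.26% lower in MBZ), with 6 at an unadjusted p under 0.05 and 2 calls by DESeq2. Without TBZ replicate 2 edgeR called nlp-24 between MBZ and TBZ, at 1.03 (adjusted p = 0.023). The half-width of the 95% interval was 0.42 at the median of 88 members in both pairs, and ran from 0.14 to 1.42 over the members. Between ABZ and TBZ 3 members were called (6.33% of all genes called, 3.94% higher and 2.4% lower in ABZ), flp-34 at 1.39 ± 0.23 (adjusted p = 0.00215), nlp-40 at 0.27 (adjusted p = 0.0195) and nlp-78 at -0.94 (adjusted p = 0.046). These numbered 1 without ABZ replicate 1, ABZ replicate 2 or TBZ replicate 3, and 2 without ABZ replicate 3 or TBZ replicate 4. Over all genes these refits called 607 to 879, against 1107 with all libraries.

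The members whose levels varied most among the 6 groups by the F statistic were flp-28, flp-10 and flp-15. The tested genes most like flp-15 over the 18 libraries, by Pearson correlation of log2 CPM, were F58H1.7 and exc-13 (both 0.97), flp-27 (0.96), flp-24 (0.96) and the chaperone gene sbt-1 (0.96). Those most like flp-10 were mef-2 (0.95), nlp-17 (0.95) and ida-1 (0.94), and 14 of the 100 genes most like it were members. Those most like flp-28 were math-38 (0.97), lipl-3 (0.96), nhr-99 (0.95) and bar-1 (0.95), and 8 of its 100 most like genes were members, against 32 for flp-15. Among all 17484 genes tested 95 were members. All of these points share the same libraries, and the group differences make up much of the spread.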

How the data were processed

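The authors deposited raw read counts per gene, made with featureCounts and Subread 1.4.6 per the submitters' processing notes. Build, annotation and the use of strand are not given in the sources at hand, so 15 members whose exons overlap another protein-coding gene may share reads with it: flp-11, flp-16, flp-19, flp-33, nlp-17, nlp-21, nlp-24, nlp-26, nlp-35, nlp-36, nlp-41, nlp-46, nlp-56, nlp-76 and nlp-79. Symbols and exon lengths came from Ensembl release 115; 19628 of 20395 identifiers had a symbol, and those without held 0.915% of counts. The members and lists were chosen with earlier results of these data known.

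Genes were filtered with filterByExpr (minimum count 10). In R 4.3.3, edgeR 4.0.16 fitted 1 robust quasi-likelihood model with TMM factors to 18 libraries (12 residual degrees of freedom, common biological coefficient of variation 0.303). It was first run on simulated counts in which few genes changed, in 1 group. That run does not check the fit where many genes change. The standard error was approximated by dividing the size of the log2 fold change by the root of F. Intervals rest on it and cover 95%. DESeq2 1.42.0, other size factors, no filter, the 6 libraries compared alone, a replicate block and leaving out each library were the alternatives. Leaving out ABZ and DMSO replicate 2 was added after seeing the data.

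Named genes were the called members with the largest changes under each drug and between FBZ and OxBZ (mean of at least 1 CPM, libraries not overlapping), those called under 3 drugs or in opposite directions, the 6 highest, sleep precursors and the YGGWamide group. Numbers pair libraries for ABZ and DMSO, by the correlation of deviations from group means (0.835, 0.899 and 0.666). The highest correlation with another number was 0.532, for replicate 3. In the other comparisons with 3 shared numbers some correlations were near 0 or negative. TBZ shares 2 numbers with each group, and the rule asked for 3, so it could not pair TBZ. Between MBZ and TBZ the correlations were 0.412 and 0.55, against at most -0.308 and 0.381 for other numbers.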

Additional observations from a re-analysis of the deposited data

How the results depend on the processing

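The members' median log2 fold change stayed negative under OxBZ and positive under FBZ in each refit without 1 library, at -1.03 to -0.82 and 0.25 to 0.42, while counts of calls moved. With the replicate block, members called numbered 17 for FBZ against DMSO (35 without the block), 31 for OxBZ against DMSO (71), 1 for ABZ, 0 for TBZ (4), 10 for ABZ against FBZ (26), 35 for ABZ against OxBZ (78), 0 for ABZ against TBZ (3), 36 for FBZ against MBZ (17), 5 for FBZ against TBZ (19) and 3 for OxBZ against TBZ (82). In these 6-library fits the block takes degrees of freedom, and apart from ABZ and DMSO the libraries were not shown to be paired. Calls over all genes moved as well. With the block they numbered 5513 for FBZ against DMSO (9049 without it), 2022 for OxBZ (7466), 0 for TBZ (1089) and 556 for ABZ (385). Between drugs they numbered 3526 for ABZ against FBZ (7459), 3015 for ABZ against OxBZ (7602) and 0 for ABZ against TBZ (1107). They were 6928 for FBZ against MBZ (4710), 1993 for FBZ against TBZ (6249) and 205 for OxBZ against TBZ (7337). From the 6 libraries alone without a block the calls were 0 for TBZ, 17 for ABZ against FBZ, 0 for ABZ against TBZ, 34 for FBZ against MBZ and 32 for FBZ against TBZ. Over all genes these fits called 12, 6835, 44, 7423 and 8314 in the same order. DESeq2 called 2 for ABZ, 1 for MBZ, 7 for TBZ, 1 for ABZ against MBZ, 5 for ABZ against TBZ, 27 for FBZ against MBZ and 2 for MBZ against TBZ. Over all genes it called 740, 942, 2081, 151, 1928, 5460 and 1050 in the same order.

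Leaving out each library in turn gave 0 to 1 calls for ABZ, 21 to 31 for FBZ, 66 to 73 for OxBZ, 0 to 3 for MBZ and 2 to 6 for TBZ against DMSO. Over all genes these refits called 171 to 371, 7379 to 9275, 4421 to 7424, 148 to 1250 and 386 to 2118. Between drugs it gave 84 to 86 for FBZ against OxBZ, 13 to 29 for ABZ against FBZ, 67 to 79 for ABZ against OxBZ, 1 to 3 for ABZ against TBZ, 10 to 19 for FBZ against MBZ, 9 to 14 for FBZ against TBZ, 68 to 75 for OxBZ against MBZ, 76 to 81 for OxBZ against TBZ and 0 to 1 for MBZ against TBZ. In the same order, calls over all genes were 8618 to 10312, 5479 to 7103, 4854 to 7465 and 607 to 1612. For the last 5 pairs they were 2327 to 4394, 4307 to 6460, 5565 to 7422, 4972 to 7392 and 277 to 1659. Any difference among groups was called in 79 to 87 members, and in 10666 to 12531 of all genes. Without ABZ and DMSO replicate 2 the calls were 0 for ABZ, 33 for FBZ, 74 for OxBZ, 0 for MBZ and 4 for TBZ, and nlp-25 under FBZ was at 1.20 (adjusted p = 0.0208), against -0.24 with them. Among the TBZ calls nlp-25 was then gained and nlp-78 lost. Over all genes that refit called 213, 8453, 5846, 232 and 810. For counts that moved, the cause was not tested. Members under 1 CPM had few reads, and changes in them were seldom detectable.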
